A study of Mus musculus with 6 samples.

Results

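The genes described here supply skeletal muscle with fatty acids and burn them: 39 genes of fatty acid uptake, release from lipid droplets, activation, transport into mitochondria and beta-oxidation. They were chosen as a named list and found by gene symbol in the array's annotation, with 1 probe set per gene, the one with the highest mean over the 6 arrays. Of the 39, 36 had a probe set of their own among 22180 genes in all. In the annotation used here no probe set has the symbol Acsl1, and Acsl3 and Cpt1b shared their probe sets with other genes, so no value is given for these 3.

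RNA of gastrocnemius, a mixed calf muscle, was measured on 1 Affymetrix expression array per mouse. The 3 control mice carried floxed TAK1 alleles without deletion. The 3 knockout mice were littermates in which TAK1, the Map3k7-encoded kinase that passes on signals of cytokine and TGF-beta receptors, had been deleted in skeletal muscle 3 weeks earlier. The labels do not name the Cre driver, the sex or the age of the mice, and the RNA came from whole muscle, which holds vessels, fat cells, connective tissue and nerve as well as fibres. In such bulk samples fewer cells of a type and less RNA per cell cannot be told apart.

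Long-chain fatty acids reach muscle from the blood as albumin-bound acids and from lipoproteins, whose triglyceride is cut by lipoprotein lipase. They are carried across the membrane, bound in the cytosol, joined to coenzyme A, and either stored in droplets or passed to mitochondria through the carnitine shuttle. That shuttle is held back by malonyl-CoA. In the matrix each turn of beta-oxidation removes an acetyl unit through a dehydrogenase, a hydratase, a second dehydrogenase and a thiolase. PPAR nuclear receptors, which bind DNA with RXR at DR1 elements, and ERR receptors are known regulators of many of these genes in muscle.

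None of the 36 measured genes passed the test of knockout against control muscle (limma, adjusted p from 0.650 for Angptl4 to 0.994 over all genes tested). Over all genes, 0.0947% passed an adjusted p of 0.05. At an unadjusted p under 0.05, 0 of the 36 passed, beside 8.04% of all genes. In 0 of the 36 did all knockout arrays lie beyond all control arrays, beside 13.4% of all genes. The knockout mean was higher in 27 and lower in 9, beside 49.9% higher among all genes, and the median log2 fold change of the 36 was 0.09, beside -0.00032 over all genes. For 27 of the 36 (75%) the 95% confidence interval lay within a 1.5-fold change in either direction, beside 86.1% of all genes. For 35 it lay within a 2-fold change, the exception being the mitochondrial carrier Ucp3.

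**Figure D1:**
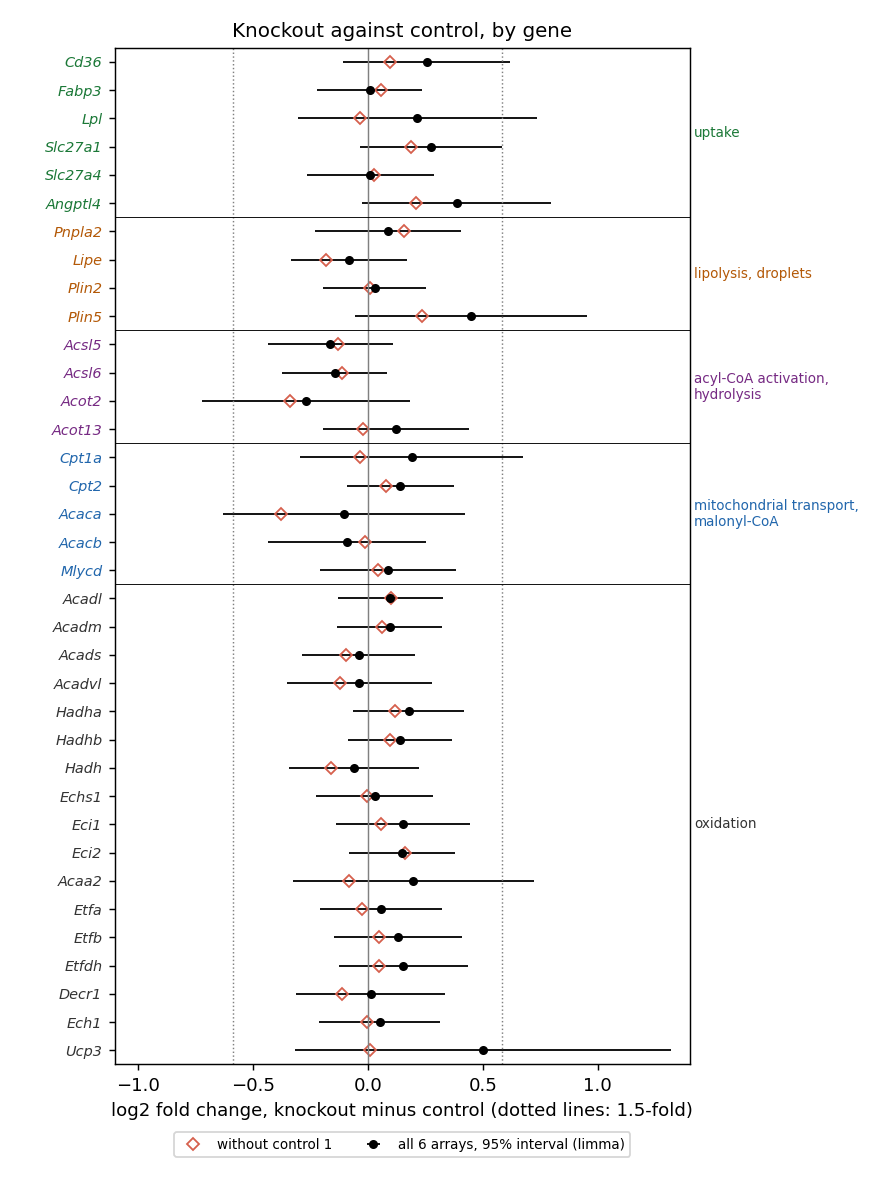
Log2 fold change of each gene, knockout minus control (horizontal axis), with the 95% confidence interval from limma over all 6 arrays (black, n = 3 per group) and the value without control 1 (open diamonds). Every interval crosses 0, and without control 1 most points lie closer to 0, among them Ucp3, which goes from 0.50 to 0.01.

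The control arrays were not alike for these genes. Control 1 held the lowest of the 6 values in 22 of the 36 genes (61.1%), beside 17.9% of all genes. Knockout 3 held the highest value in 13 and control 2 in 9. After subtracting each gene's mean over the 6 arrays, the median of the 36 genes was -0.16 in control 1, 0.12 in control 2 and -0.04 in control 3, with -0.02, 0.08 and 0.10 for knockouts 1, 2 and 3. All knockout medians lay between those of control 1 and control 2. The standard deviation within the control group exceeded that within the knockout group in 27 of the 36 genes (75%), beside 50.6% of all genes. Without control 1 the knockout mean was higher in 19 of the 36 and lower in 17, beside 50.2% higher among all genes, and the median log2 fold change was 0.01. Without control 2 it was 0.14, with 29 of 36 higher, beside 49.7% of all genes, and in 13 of the 36 all knockouts then lay above both remaining controls, beside 12% of all genes. When each array was left out in turn, the fold change of 33 of the 36 moved by over 1.5 times at least once, the exceptions being Acsl6, Hadha and Hadhb. It changed sign at least once in 18 of the 36, and in 8 of these without control 1.

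**Figure D2:**
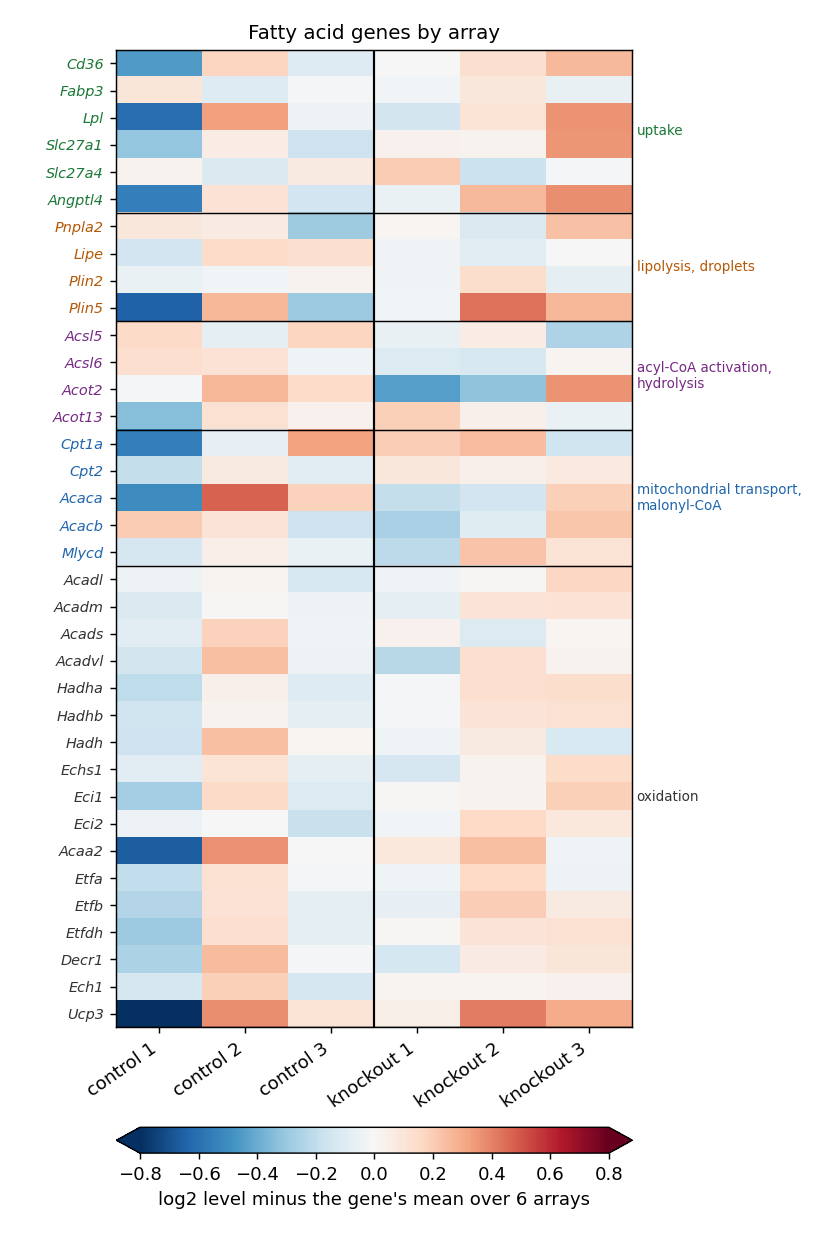
Log2 level of each gene in each array minus the gene's mean over the 6 arrays (colour scale), with genes grouped by step and a line between control and knockout arrays. Control 1 is the bluest column through uptake and oxidation genes and holds the lowest value in 22 of 36 genes.

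The low values of control 1 extended beyond these genes, but not to all genes. In a list of 22 oxidative phosphorylation genes control 1 was lowest in 19, and its median was -0.25, against -0.01 to 0.10 in the other arrays. The knockout mean was higher in 20 of these 22, beside 49.9% of all genes, with a median log2 fold change of 0.09. Without control 1 that fold change was -0.00045, with 10 higher and 12 lower. The median of all genes was 0.0044 in control 1. Medians of the 9 slow fibre markers were -0.19, 0.59 and -0.70 in the controls and -0.32 to 0.33 in the knockouts, so control 1 was not the lowest there. The 9 adipocyte markers measured, of 11 listed, had medians of -0.23, 0.30 and 0.14 in controls and -0.12, -0.25 and 0.22 in knockouts; 7 lay above background, while Lep and Ucp1 did not. The 10 endothelial markers had medians of -0.15, 0.06 and 0.17 in controls and -0.03 to 0.004 in knockouts. Their part in the low values of control 1 was not tested.

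Knockout 3 stood apart in connective tissue markers. It was lowest in 7 of 7 fibro-adipogenic markers, with a median of -0.75 against -0.32 to 0.47 in the other arrays, and in 7 of 8 tendon markers, with a median of -1.02. The other tendon medians were -0.03, 0.63 and 0.40 in controls 1, 2 and 3 and 0.08 and -0.35 in knockouts 1 and 2. The knockout mean was lower for 8 of 8 tendon markers (median log2 fold change -0.80, and -0.45 without knockout 3), 5 of them at an unadjusted p under 0.05, beside 4.12% of all genes lower at that level, and 0 past adjustment (limma, adjusted p from 0.425). The 8 macrophage markers had medians of 0.24, -0.10 and -0.13 in controls and 0.22, -0.10 and -0.17 in knockouts. Without knockout 3 the median log2 fold change of the 36 genes was 0.07, with 24 higher, and the part of connective tissue in these values was not tested.

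All 10 skeletal muscle markers, from Ckm to Myh4, lay above background, and 7 had a lower knockout mean with 0 past the test. Their medians were 0.008, 0.022 and 0.024 in controls against 0.0016, -0.019 and -0.008 in knockouts, small values that do not overlap. Some of these markers sat near the top of the scale, with control means of 14.15 for Myh4 and 14.12 for Acta1. The highest values of the arrays were 14.31 to 14.34, and what this did to the differences was not tested. All knockouts lay below all controls for the fast myosin light chain Mylpf (log2 fold change -0.46, limma, adjusted p = 0.221). The same held for the fast myosin Myh1 (-0.49, limma, adjusted p = 0.418) and the actin Acta1 (-0.05). For desmin, Des (0.17), all knockouts lay above all controls. These 4 of the 10 were named after their values were seen, and 13.4% of all genes had groups that did not overlap. Map3k7 itself read 8.47, 8.32 and 8.42 in controls against 8.20, 8.28 and 8.17 in knockouts, with every knockout below every control. The Map3k7 log2 fold change of -0.19 did not pass the test (limma, adjusted p = 0.686), and which exons the deletion removes is not stated in the labels.

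Because PPAR and ERR elements are known near genes of this pathway, the bases before the RefSeq start sites (assembly GRCm38.p6) were searched for them. Windows from 250 bases before to 50 after a start were found for 33 of the 39 genes, 40 windows in all. Angptl4, Lpl, Cpt1b, Acaa2, Decr1 and Acot13 had no window and were not searched. The DR1 motif, a pair of AGGTCA repeats in the same direction with any 1 base between them, allowing up to 2 mismatches in its 12 fixed letters and either strand, was found in 5 of the 40 windows (12.5%), those of Cd36, Echs1, Etfa, Plin2 and Ucp3, beside 3.86% of 32851 windows of all genes. The ERR motif TCAAGGTCA, without mismatch, was found in 1 (2.5%), a start of Acsl6, beside 0.423% of all. These motifs have the letters AGGTCA in common, so 1 stretch can match both. The 250 bases before the start are printed, 5′ to 3′ on the gene's strand with the match in capitals, for the 3 genes with a match and the smallest p in the array test. They lie at chr5:17835897-17836146 (minus strand), chr11:54303574-54303823 (plus strand) and chr7:100472741-100472990 (plus strand).
Cd36: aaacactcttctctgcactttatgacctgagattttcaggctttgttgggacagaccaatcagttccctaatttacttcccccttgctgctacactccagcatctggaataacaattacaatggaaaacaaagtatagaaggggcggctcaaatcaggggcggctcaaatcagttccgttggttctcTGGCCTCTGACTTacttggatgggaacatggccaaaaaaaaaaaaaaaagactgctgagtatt
Acsl6: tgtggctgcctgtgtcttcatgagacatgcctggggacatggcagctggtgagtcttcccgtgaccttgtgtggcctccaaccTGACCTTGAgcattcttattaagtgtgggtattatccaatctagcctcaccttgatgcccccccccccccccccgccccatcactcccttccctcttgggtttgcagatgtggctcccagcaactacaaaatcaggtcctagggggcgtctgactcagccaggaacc
Ucp3: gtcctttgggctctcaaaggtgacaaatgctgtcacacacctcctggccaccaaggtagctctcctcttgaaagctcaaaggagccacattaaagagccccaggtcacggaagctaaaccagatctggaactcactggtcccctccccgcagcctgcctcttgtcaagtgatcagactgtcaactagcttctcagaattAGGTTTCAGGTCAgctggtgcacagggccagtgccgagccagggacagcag
The capitals mark a DR1 match with 2 mismatches starting 63 bases before the Cd36 start, an exact ERR match starting 167 bases before the Acsl6 start, and a DR1 match with 2 mismatches starting 51 bases before the Ucp3 start. On the printed strand the Cd36 and Acsl6 matches read as the reverse complement of the motif. A match describes letters only, and no binding was measured here.

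Uptake genes had the highest step median, 0.24 on the log2 scale, with 0 past the test. All 6 had a higher knockout mean, beside 49.9% of all genes. Of these, Fabp3, Slc27a4 and Lpl changed sign with some array left out. Angptl4, a secreted inhibitor of lipoprotein lipase, had the smallest p of all 36 genes. Its log2 levels were 5.60, 6.27 and 5.995 in controls 1, 2 and 3, against 6.09, 6.41 and 6.52 in knockouts 1, 2 and 3. Only knockout 1 lay within the control range, and control 1 lay below the background level of 5.85 taken from olfactory and vomeronasal receptor genes. The log2 fold change was 0.39 (95% interval -0.03 to 0.80; limma, adjusted p = 0.650) and 0.21 without control 1.

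Slc27a1, a fatty acid transport protein with acyl-CoA synthetase activity, had log2 levels of 8.66, 9.03 and 8.80 in controls against 8.999, 8.99 and 9.32 in knockouts. Knockouts 1 and 2 sat just under control 2, and knockout 3 was above all others. Knockout exceeded control by 0.28 on that scale (interval -0.03 to 0.58; limma, adjusted p = 0.672), by 0.19 without control 1 and by 0.17 without knockout 3.

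The membrane transporter Cd36 had levels of 11.17, 11.79 and 11.52 in the controls and 11.62, 11.75 and 11.88 in knockouts. Control 2 lay above knockouts 1 and 2, so the groups overlapped. Its log2 fold change of 0.26 (interval -0.11 to 0.62; limma, adjusted p = 0.769) was 0.09 without control 1 and 0.41 without control 2. Lpl, the lipoprotein lipase itself, ran in the same order of controls, at 10.71, 11.65 and 11.28, with knockouts at 11.18, 11.43 and 11.68. Its log2 fold change was 0.22 (interval -0.31 to 0.74) and changed sign without control 1 (-0.035), while it was 0.43 without control 2. A second Lpl probe set gave 0.12. The other uptake genes, the cytosolic binding protein Fabp3 and the transport protein Slc27a4, had log2 fold changes of 0.01 each, with intervals within 0.29 of 0.

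The uptake median depended on several arrays. It was 0.08 without control 1, 0.13 without knockout 3 and 0.39 without control 2. Per array it was -0.38, 0.09 and -0.07 in controls against -0.01, 0.10 and 0.31 in knockouts, so control 2 lay level with knockout 2 and above knockout 1.

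**Figure D3:**
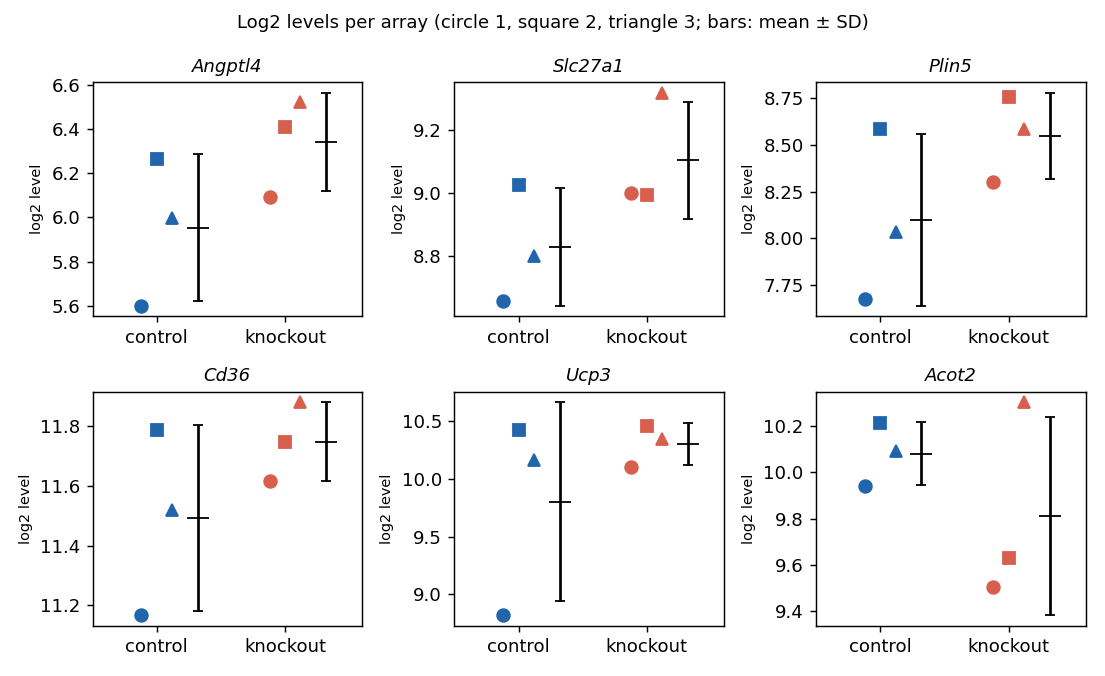
Log2 level per array of 6 genes named in the text, with each group's mean ± SD (n = 3) to the right of its points; circles, squares and triangles are replicates 1, 2 and 3 and vertical axes do not start at 0. Control 1 (blue circle) is the lowest point for all but Acot2, and the groups overlap in every panel.

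Lipid droplet and lipolysis genes were split. Plin5, a perilipin that ties droplets to mitochondria in oxidative tissue, had levels of 7.67, 8.59 and 8.03 in the controls and 8.30, 8.76 and 8.59 in knockouts. Controls 1 and 3 lay below all knockouts, while control 2 lay level with knockout 3. Its log2 fold change was 0.45 (interval -0.05 to 0.95; limma, adjusted p = 0.672), 0.24 without control 1 and 0.69 without control 2.

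Plin2, the droplet coat protein whose level is known to follow stored lipid, showed little spread, at 8.21, 8.24 and 8.29 in controls against 8.24, 8.40 and 8.20 in knockouts. Its log2 fold change was 0.03 (interval -0.20 to 0.25), which leaves out changes of 1.5-fold. Among the lipases, Pnpla2 (adipose triglyceride lipase, the first step) had levels of 10.85, 10.82 and 10.47 in the controls and 10.77, 10.64 and 10.99 in knockouts, a log2 fold change of 0.09 (interval -0.23 to 0.40). Lipe (hormone-sensitive lipase, the next step) had 7.08, 7.39 and 7.37 against 7.21, 7.14 and 7.23, a log2 fold change of -0.08 (interval -0.34 to 0.17). Neither lipase differed beyond the spread between arrays. The step median was 0.06, and 0.01 without control 3 or 0.03 without knockout 3.

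Activation and hydrolysis of acyl-CoA was the only step whose median was lower in knockout muscle, -0.15, with 3 of 4 genes lower and 0 past the test. By array its median was 0.06, 0.12 and 0.09 for controls against -0.08, -0.04 and -0.01 for knockouts, which do not overlap, although the arrays overlapped for each of the 4 genes alone. The step median stayed between -0.16 and -0.12 when any 1 array was left out. It rests on few genes, since Acsl1 and Acsl3 are not among those measured. Of the 4, Acot2 and Acot13 are thioesterases, which stand for hydrolysis rather than activation.

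Acsl6, a long-chain acyl-CoA synthetase, was represented by 2 probe sets with different results. The one chosen by the rule read 8.26, 8.24 and 8.09 in controls against 8.01, 7.99 and 8.15 in knockouts, with knockout 3 above control 3 (log2 fold change -0.14, interval -0.37 to 0.08; limma, adjusted p = 0.792). The other one read 8.39, 8.08 and 7.87 in the controls and 7.30, 7.23 and 7.54 in knockouts, with all knockouts below all controls. Its log2 fold change was -0.76 (SE 0.16, interval -1.14 to -0.37). Tested among all 41345 probe sets, in an analysis chosen after its values were seen, this probe set had an unadjusted p of 0.0024 and did not pass adjustment (limma, adjusted p = 0.493); 6.39% of all probe sets had an unadjusted p under 0.05. Which transcripts of Acsl6 each probe set covers is not given in the annotation used here. The mean of both probe sets gave -0.45 (limma, adjusted p = 0.334).

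Acsl5, another synthetase, had levels of 6.27, 6.04 and 6.29 in controls against 6.06, 6.17 and 5.87 in knockouts (log2 fold change -0.16, interval -0.43 to 0.11), and its fold change was -0.08 without knockout 3. Acot2, a mitochondrial thioesterase that frees fatty acid from coenzyme A, had 9.94, 10.21 and 10.09 in the controls and 9.51, 9.63 and 10.30 in knockouts. Knockouts 1 and 2 lay below every control and knockout 3 above every control. The log2 fold change was -0.27 (interval -0.72 to 0.18; limma, adjusted p = 0.807). It ranged from -0.51 without knockout 3 (adjusted p = 0.374) to -0.12 without knockout 1. The thioesterase Acot13 had a log2 fold change of 0.12, and of -0.02 without control 1.

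Genes of the carnitine shuttle and of malonyl-CoA control had a step median of 0.09, which was -0.01 without control 1, -0.0048 without knockout 2, 0.05 without knockout 3 and 0.14 without control 2. Cpt2, the inner-membrane carnitine palmitoyltransferase, was the most even across knockouts. It read 9.72, 9.99 and 9.83 in the controls against 10.01, 9.96 and 9.998 in knockouts, and control 2 alone reached the knockout range. Knockout exceeded control by 0.14 (interval -0.09 to 0.37; limma, adjusted p = 0.802), and by 0.08 without control 1.

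Cpt1a, the outer-membrane isoform best known from liver, had levels of 6.58, 7.07 and 7.46 in controls against 7.33, 7.38 and 6.97 in knockouts. The log2 fold change of 0.19 (interval -0.29 to 0.68) turned to -0.035 without control 1 and was 0.40 without control 3. The muscle isoform Cpt1b has no value here. Mlycd, which breaks down malonyl-CoA, had 8.35, 8.54 and 8.44 in the controls and 8.28, 8.72 and 8.60 in knockouts (log2 fold change 0.09, interval -0.21 to 0.39). The acetyl-CoA carboxylases that make malonyl-CoA, Acaca and Acacb, had log2 fold changes of -0.10 and -0.09, with Acaca at -0.38 without control 1 (limma, adjusted p = 0.725) and at 0.11 without control 2.

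Among the 17 genes of mitochondrial oxidation and its electron transfer, 14 had a higher and 3 a lower knockout mean, 0 passed the test, and the median log2 fold change was 0.10. Control 1 was lowest in 12 of the 17 and control 2 highest in 7. By array, the step median was -0.17, 0.13 and -0.07 for controls against -0.02, 0.11 and 0.09 for knockouts, so the highest and the lowest medians both belonged to controls. Without control 1 the median was 0.01, with 9 higher and 8 lower, and without control 2 it was 0.16, with 17 higher. Without knockout 1 it was also 0.16. The intervals of 15 of the 17 (88.2%) lay within a 1.5-fold change, beside 86.1% of all genes and 88.5% of genes above background, so this share was near that of other genes. The exceptions were the thiolase Acaa2 and Ucp3.

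**Figure D4:**
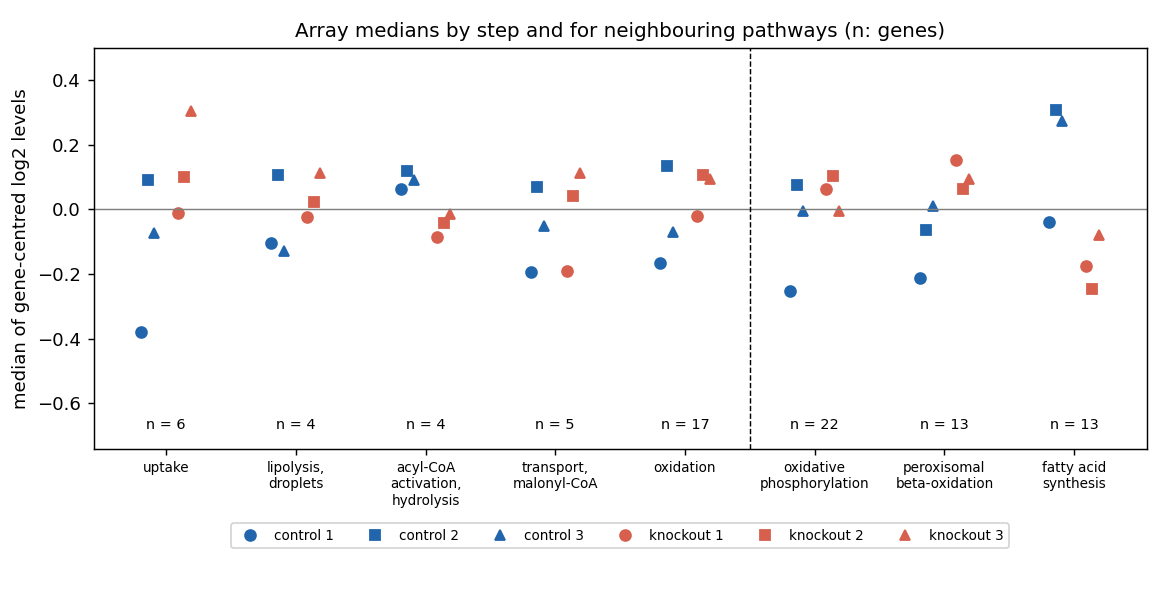
Median, over the genes of each step or pathway, of log2 levels centred on each gene's mean over the 6 arrays (vertical axis), for each control (blue) and knockout (red) array, with the number of genes under each column. Control 1 lies lowest for uptake (-0.38), oxidation (-0.17), oxidative phosphorylation (-0.25) and peroxisomal beta-oxidation (-0.21). For transport, control 1 and knockout 1 lie level, both at -0.19. Control 1 is not the lowest for acyl-CoA activation and hydrolysis or for fatty acid synthesis. Nor is it for lipolysis and droplets, where control 3 lies at -0.13 and control 1 at -0.10.

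The trifunctional protein, which carries out the last 3 reactions on long chains, is built from Hadha and Hadhb. Hadha had the smallest p of the step, with levels of 11.70, 11.94 and 11.79 in controls against 11.89, 12.03 and 12.04 in knockouts. Control 2 lay above knockout 1 and below the other 2 knockouts. Knockout exceeded control by 0.18 (interval -0.06 to 0.42; limma, adjusted p = 0.750). Hadhb had a similar log2 fold change, 0.14 (interval -0.09 to 0.37), on a probe set close to background: 5.93, 6.11 and 6.01 in the controls and 6.07, 6.19 and 6.21 in knockouts.

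Eci2, an isomerase for unsaturated chains, had 8.66, 8.70 and 8.52 in controls against 8.68, 8.86 and 8.79 in knockouts, with knockout 1 just below control 2 (log2 fold change 0.15, interval -0.08 to 0.38, and 0.10 without control 3). Centring each array on its median, which moves every value of an array alike, separated the groups for Eci2 alone. Without this centring, 6.74% of all genes were separated upward. Etfdh, which passes electrons from the dehydrogenases to ubiquinone, had 11.07, 11.49 and 11.28 in the controls and 11.36, 11.46 and 11.48 in knockouts, with control 2 the highest of all (log2 fold change 0.15, interval -0.13 to 0.44). Without control 1 the Etfdh value was 0.05, and without control 2 it was 0.26.

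The acyl-CoA dehydrogenases, which take the first step for chains of different length, had small differences. Acadvl, for very long chains, had 10.12, 10.51 and 10.22 in controls against 10.05, 10.40 and 10.30 in knockouts (log2 fold change -0.04, interval -0.35 to 0.28). Acadl, Acadm and Acads had log2 fold changes of 0.10, 0.10 and -0.04, and their intervals stayed within 0.33 of 0. The remaining genes of the step ran from -0.06 in Hadh, the short-chain hydroxyacyl-CoA dehydrogenase, to 0.20 in Acaa2. Acaa2 read 9.80 in control 1 and between 10.43 and 10.83 in the other arrays, and its log2 fold change was -0.08 without control 1 and 0.43 without control 2.

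Ucp3, an inner-membrane carrier of muscle whose transcript is known to follow fatty acid supply, had the largest fold change of the 36 genes and the widest spread. It read 8.82, 10.43 and 10.16 in the controls against 10.10, 10.47 and 10.35 in knockouts. Control 1 alone stood apart, 1.48 below the mean of the other 5 arrays on the log2 scale, and controls 2 and 3 lay within or next to the knockout range. The log2 fold change was 0.50 (interval -0.32 to 1.32; limma, adjusted p = 0.802) with all arrays, 0.01 without control 1 and 0.81 without control 2.

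Neighbouring pathways were read from lists in the same way, with 0 genes called over all genes in any of them. Of 20 further genes of fatty acid activation, carriers and carnitine, 12 were higher and 8 lower, with a median of 0.03. Groups did not overlap in 4 of the higher and 2 of the lower genes, beside 6.74% and 6.65% of all genes. Acsl4, a synthetase that prefers arachidonic acid, had the smallest p of that list. It had 8.998, 8.59 and 8.73 in the controls and 8.21, 7.99 and 8.18 in knockouts, with no overlap (log2 fold change -0.65, SE 0.13; limma, adjusted p = 0.181). Next was the thioesterase Acot7 (log2 fold change -0.31, adjusted p = 0.513). Of 13 peroxisomal beta-oxidation genes 10 were higher, with a median of 0.07. Without control 1 the median was 0.08, with 9 higher. With all arrays, groups did not overlap in 4 of the 13, all higher, beside 6.74% of all genes. At an unadjusted p under 0.05 (limma), 2 were higher, beside 3.93% of all genes. By array the peroxisomal list stood at -0.21, -0.06 and 0.01 for controls against 0.15, 0.06 and 0.09 for knockouts. Hsd17b4, the peroxisomal multifunctional enzyme, had 0.39 on the log2 scale (adjusted p = 0.533) and 0.23 without control 1, and Acox2 had 0.56 (adjusted p = 0.155) at a mean level below background.

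Fatty acid synthesis genes lay on the other side. Of 13 measured, 12 were lower in knockout muscle, with a median of -0.41, and 4 had an unadjusted p under 0.05 with groups that did not overlap, beside 4.12% and 6.65% of all genes lower in these respects. They were Me1, which supplies NADPH (log2 fold change -0.58), the carbohydrate-responsive factor Mlxipl (-0.47), the acetyl-CoA synthetase Acss2 (-0.42) and the lipogenic factor Srebf1 (-0.34), with adjusted p from 0.251 to 0.425 (limma). The last 2 of these were named after their values were seen. Left-out arrays moved the list median between -0.51 and -0.28. The lowest of these, -0.51 with 13 of 13 lower, was found without control 1. Adipocyte markers, whose cells also make fat, had a median of -0.08, with 6 of 9 lower; their part in this list was not tested.

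Among regulators, the coactivator Ppargc1a read 10.23, 10.75 and 10.31 in controls against 10.81, 11.08 and 11.20 in knockouts, with no overlap (log2 fold change 0.59, SE 0.16; limma, adjusted p = 0.351). Rxrg, a partner of nuclear receptors, had -0.62 (adjusted p = 0.458). Pdk4, which spares pyruvate when fat is burned and was named after its values were seen, followed the pattern of Ucp3: 10.78 in control 1, 12.59 and 12.35 in controls 2 and 3, and 12.51, 12.87 and 12.92 in knockouts. Its log2 fold change was 0.86 (adjusted p = 0.652) and 0.29 without control 1, again the array that stood apart. Control 1 was also lowest in 4 of 4 ketone body genes measured, whose median of 0.10 became -0.05 without it. Of these, Bdh1, the mitochondrial hydroxybutyrate dehydrogenase, had 0.56 with all arrays and 0.23 without control 1, and Acat1 had 0.11 and 0.03. In triglyceride synthesis the 11 genes had a median of -0.01. The 11 droplet partners had a median of -0.02, with Cidea at 0.32 (0.16 without knockout 3) and Cidec at -0.41 (from -0.75 without knockout 3 to -0.13 without knockout 2), and Agpat3 and Gpat4 of triglyceride synthesis had 0.18 and -0.14.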

How the data were processed

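RNA was measured in gastrocnemius of 3 control and 3 knockout mice, 1 array each. The deposited values are log2 probe set levels (41345 per array); the authors' tools, per the submitters' processing notes, included RMA, oligo and limma, with versions and settings not given in the sources used here. The RMA method subtracts background, makes the arrays' distributions alike and combines probes, and it compresses differences of dim transcripts. Array medians lay between 5.78 and 5.84. Scan dates were not used and no batch was tested.

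Gene symbols came from GEO's annotation of the array, which may be outdated: 23521 probe sets had 1 symbol, 1814 several and 16010 none, and the latter 2 kinds were left out. All 22180 genes were fitted with limma 3.58.1 in R 4.3.3 (lmFit, eBayes, group means, two-sided, Benjamini-Hochberg over all genes, threshold 0.05, no filter). The fit was tested on simulated data. Background was the 95th percentile of 1394 olfactory and vomeronasal receptor genes, 5.85. List medians are descriptions with no test. Plots used matplotlib 3.10.9.

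Members and lists were chosen with earlier results of these data known. Values in every array are given for the 3 genes of each step with the smallest p (5 for oxidation) and for a fixed set (Cd36, Lpl, Cpt1b, Acadvl, Hadha, Ucp3, Angptl4, Plin2); of neighbouring lists, the 2 genes with the smallest p are named. Each array is a separate mouse. Alternatives were median centring, quantile normalization, averaged probe sets, 2 filters on dim genes, an intensity trend with robust prior, array weights, a replicate block, each array left out, and every probe set tested.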

Additional observations from a re-analysis of the deposited data

How the results depend on the processing

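Over 14 alternatives 0 of the 36 genes passed an adjusted p of 0.05 (limma; the smallest adjusted p of each lay between 0.334 and 0.821), and 18 genes, 14 higher and 4 lower, kept their direction in all in which they were tested. With any 1 array left out, the count of genes with an unadjusted p under 0.05 ranged from 0 to 4 higher and 0 to 1 lower. Of all genes, 3.21% to 3.95% were higher and 3.14% to 4.49% lower at that level in these fits. The count whose groups did not overlap ranged from 0 to 13 higher and 0 to 2 lower. Of all genes, 11.3% to 12% were then separated upward and 10.1% to 13.1% downward. The 13 arose without control 2, where 12% of all genes were separated upward. The median of all members ranged from 0.01 to 0.14 and that of acyl-CoA activation and hydrolysis from -0.16 to -0.12. Called genes among all genes ranged from 2 to 11. The fold change of 18 of the 36 genes changed sign with some array left out. Among these, 6 are given array by array, and they ranged from -0.035 to 0.43 for Lpl, -0.035 to 0.40 for Cpt1a, -0.12 to 0.075 for Acadvl, -0.034 to 0.17 for Pnpla2, -0.033 to 0.071 for Plin2 and -0.0048 to 0.22 for Mlycd. Median centring separated the groups for 1 gene, higher. The mean over probe sets put 1 gene, Acsl6, at an unadjusted p under 0.05 (limma) and separated it, lower. The median of acyl-CoA activation and hydrolysis was then -0.22. Without either change, 6.74% of all genes were separated upward, 6.65% were separated downward and 4.12% were lower at that p. The shares of all genes under median centring and under the mean over probe sets are not given here. A second probe set of Fabp3 gave -0.15, opposite in sign to the first. Over all genes 53 were called among genes above the median level, 45 among those above the receptor-gene level and 36 under a robust, intensity-dependent prior; the first 2 tested fewer genes and for the last the cause was not tested.

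Control and knockout arrays share replicate numbers. Deviations of same-numbered arrays from their group means correlated at 0.0791, 0.212 and -0.0721 across genes, so the numbers were not taken to pair the mice, and control 1 and control 3 did not correlate best with their own number. With a replicate block, 2 of the 36 genes, Angptl4 (0.0148) and Plin5 (0.00957), had an unadjusted p under 0.05 (limma), higher, and 0 passed adjustment. Without a block 3.93% of all genes were higher at that level, and the share of all genes with a block is not given here. Each group had only 3 arrays. Angptl4, Hadhb and Acsl5 lay closest to background, and the effect of dim signal on their values was not tested. The largest standard error was that of Ucp3 (0.36), a gene well above background.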
